A study of Rattus norvegicus with 9 samples.

Results

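Of 20442 genes in the expression table, 35 encode the folding machinery of the endoplasmic reticulum (ER) or act in the integrated stress response, and these 35 genes were followed in dendritic cells grown from rat bone marrow, in 9 cultures. They were picked by name: 14 chaperones and folding factors of the ER lumen, 6 genes of ER-associated degradation, 3 stress sensors with the transcription factor Xbp1, 6 stress-response transcription factors and feedback genes, and 5 enzymes of serine, folate and asparagine metabolism. All 35 were in the table, and 34 passed the filter of at least 1 FPKM (fragments per kilobase, relative to the depth of the library) in at least 3 libraries, which 11141 of all genes passed. Each of the 34 had at least 1.98 FPKM in every library, so none passed through 1 group alone.

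The cells were primary and of wild-type genotype, labelled as immune cells, and grew in medium with 10% serum plus 20 ng/mL of GM-CSF and as much IL-4. There were 3 untreated cultures (Control), 3 given 1 µg/mL of LPS, the endotoxin lipopolysaccharide of bacteria, and 3 given LPS together with ASC-derived extracellular vesicles (LPS+EVs). Treatment lasted 24 h, and the protocol also lists 50 ng/mL of something without a name. The EV dose, strain, sex and age are not given in the sources used here. If the unnamed agent was given to LPS cultures, its effect and that of LPS cannot be told apart. The replicates are labelled biological, but nothing places them in separate animals, and the p-values then reflect culture-to-culture spread alone.

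When unfolded protein accumulates in the ER, the sensors Ern1 (IRE1), Eif2ak3 (PERK) and Atf6 start the unfolded protein response. Ern1 splices the Xbp1 transcript, and spliced Xbp1 and cleaved Atf6 raise chaperone and degradation genes. Eif2ak3 and other kinases phosphorylate eIF2, which lowers translation in general but favours that of Atf4, and Atf4 with Ddit3 (CHOP) then drives feedback genes and amino acid enzymes. This second arm is the integrated stress response. In dendritic cells the ER load bears on antigen handling and cytokine secretion, and LPS is known to engage parts of both arms. Gene-level values do not separate spliced from unspliced Xbp1, and they carry no information on translation of Atf4.

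Both arms act through short promoter elements. RefSeq promoters of build GRCr8 (250 bases before to 50 after the start) were found for 28 of the 35 genes. The ER stress element (ERSE), searched on both strands as CCAAT and CCACG with 9 bases of any kind between them, was in 22 of 33469 promoters (0.0657%), and 7 of these 22 were genes followed here. It stood in 5 of 11 folding factor promoters, in Xbp1 and in Derl3. The shorter ERSE-II, ATTGG and CCACG with 1 base of any kind between them, was in 0.0508% of promoters, those of Dnajb11, Hyou1 and Herpud1 among them. The first stretches show the ERSE, with both of its conserved ends in capitals and 12 further bases on each side. Of the genes they precede, all but Hspa5 were called lower after LPS. The stretch of Derl3, which was under the filter, is not shown.
Hspa5 (chr3:38452961-38453003, plus strand): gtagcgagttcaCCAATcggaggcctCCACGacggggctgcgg
Calr (chr19:40213123-40213165, plus strand): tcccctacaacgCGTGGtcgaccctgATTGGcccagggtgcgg
Creld2 (chr7:121789227-121789269, plus strand): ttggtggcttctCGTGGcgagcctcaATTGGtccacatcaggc
Dnajc3 (chr15:102432522-102432564, plus strand): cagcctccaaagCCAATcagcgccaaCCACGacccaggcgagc
Xbp1 (chr14:84604546-84604588, plus strand): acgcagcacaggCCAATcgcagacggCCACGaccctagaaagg
Hsp90b1, with 2 copies on opposite strands (chr7:23012335-23012481, minus strand): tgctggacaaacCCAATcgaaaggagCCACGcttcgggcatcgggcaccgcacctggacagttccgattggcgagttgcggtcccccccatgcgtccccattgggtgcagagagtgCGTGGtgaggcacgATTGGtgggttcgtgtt
In Hspa5 the element ran from base -43 to base -25 before the start site, and in Xbp1 from -65 to -47.

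The Herpud1 promoter held an ERSE-II together with a C/EBP-ATF response element (CARE), the site class bound by Atf4 with Ddit3 or C/EBP partners. CARE was searched as TGATGNAA on both strands and was in 3.98% of promoters, so a match is common. Trib3 and Chac1 held it too, but the promoters of Ddit3, Ppp1r15a and the 5 enzymes did not. None of the 5 enzyme promoters held an ERSE either. Capitals mark the matched letters. The CARE of Herpud1, Chac1 and Trib3 lies on the opposite strand from the gene, so it reads here as its reverse complement.
Herpud1 (chr19:10614809-10614903, minus strand): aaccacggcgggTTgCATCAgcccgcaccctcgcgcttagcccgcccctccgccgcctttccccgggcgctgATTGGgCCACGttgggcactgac
Chac1 (chr3:126795952-126795983, plus strand): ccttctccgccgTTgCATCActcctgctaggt
Trib3 (chr3:161275535-161275566, minus strand): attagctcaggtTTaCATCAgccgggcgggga
A match describes these letters only, not a bound site.

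Sequencing depth ran from 32148519 to 39407116 assigned reads per library, a 1.23-fold range. The library numbered 2 stood apart in each group on the second principal component (21% of variance, scores -20.9, -41.1 and -35.9). It also carried the highest Cd74 of its group (5855 to 6137 FPKM, against 939 to 2550 in the other libraries). Of 12 dendritic cell markers, 2 were under 1 FPKM in every library (Flt3 and Clec9a), and Itgax, Cd74 and Cd83 were present. Of the 10 tested dendritic cell markers, 3 fell and 1 rose after LPS. Of 10 macrophage and monocyte markers, all tested, 6 fell and 2 rose after LPS. Csf1r had a mean of 171 FPKM in Control and 109 in LPS, and Cd68 one of 430 and 542. Summed neutrophil markers were 30.9 to 256 FPKM in Control and 1.80 to 6.58 in LPS. Summed erythroid and megakaryocyte markers were 538 to 1497 FPKM in Control and 609 to 1940 in LPS (3 of 5 tested rose and 1 fell), and summed stromal markers 204 to 581 and 159 to 963 (1 of 10 rose). Of the B and plasma cell markers, Sdc1 had a mean of 28.2 FPKM in Control and 168 in LPS, while Pax5, Mzb1, Tnfrsf17, Cd79a and Cd79b were under 1 FPKM in every library. The part of these marker levels in the results below was not tested. Fewer cells of a type and less RNA per cell cannot be told apart in such bulk samples.

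Exposure to LPS was followed by different directions of change by role. Most lumenal chaperones fell, the protein disulfide isomerase P4hb rose, the stress factors Ddit3, Atf3 and Ppp1r15a rose with no called change of Atf4, and the serine enzymes Phgdh and Psat1 fell furthest. In numbers, 19 of 34 tested genes fell, 5 rose and 10 did not pass (limma, Benjamini-Hochberg over 11141 genes, adjusted p under 0.05). Over all tested genes 28.7% fell and 12.3% rose. The median log2 difference of the 34 was -0.60, beside -0.19 over all tested genes. With median-of-ratios scaling, which sets the median of all genes near 0, 14 of the 34 fell and 5 rose, beside 20.8% and 17.1% of all genes, and the share of higher genes among all calls went from 29.9% to 45.1%. With the replicate number as a block, counts among the 34 were the same, beside 17.2% higher and 35.5% lower of all genes. The directions below are those of the deposited scaling. A call of 13 of the 19 falls and of 4 of the 5 rises held under each of 17 other settings, and the exceptions are named beside the genes.

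**Figure D1:**
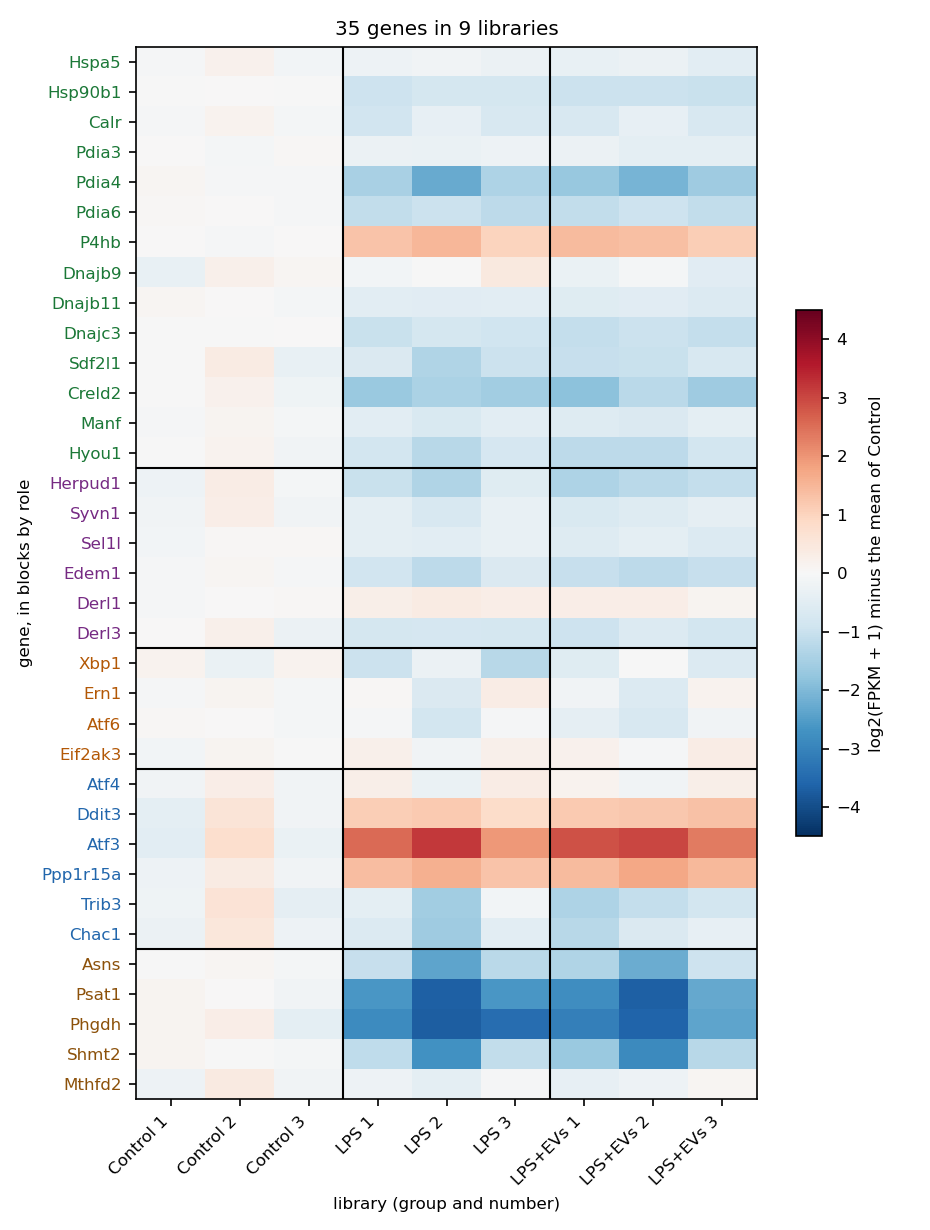
Heat map of the 35 genes (rows, in blocks for folding factors, degradation, sensors with Xbp1, stress factors and feedback genes, and enzymes, from top to bottom) in 9 libraries (columns, by group and number); colour is log2(FPKM + 1) minus the Control mean of that gene. P4hb, Ddit3, Atf3 and Ppp1r15a are higher in all 6 treated libraries, and Psat1 and Phgdh are the lowest rows.

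Among the 14 folding factors, 10 fell, 1 rose and 3 did not pass, with a median log2 difference of -0.74. The glucose-regulated chaperone Hsp90b1 (GRP94), which folds Toll-like receptors and integrins, was at 510, 526 and 516 FPKM in Control and at 273, 299 and 297 in LPS. All LPS libraries lay far below all Control libraries, which were close to each other, and the mean fell 1.79-fold (log2 difference -0.84, SE 0.09, limma adjusted p = 0.000223). Pdia4, a disulfide isomerase, was at 159, 144 and 144 FPKM in Control against 54.2, 30.1 and 56.3 in LPS. Its mean was 3.19-fold lower in LPS (log2 difference -1.70, SE 0.24, adjusted p = 0.000841), the largest fall of the 14, with the LPS library numbered 2 lowest. Creld2, an ER stress-inducible protein with isomerase activity, was at 58.5, 69.0 and 52.7 FPKM in Control and at 18.0, 21.7 and 19.4 in LPS, with no overlap. Its mean was 3.05-fold lower (log2 difference -1.56, SE 0.17, adjusted p = 0.00027).

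Sdf2l1, a partner of the Hspa5 chaperone cycle, was at 133, 174 and 108 FPKM in Control and at 86.5, 52.3 and 69.1 in LPS. The groups did not overlap although Sdf2l1 varied widely within each, and it fell by 0.99 on the log2 scale (SE 0.22, adjusted p = 0.00814). Of the 6 other factors that fell, Pdia6, Hyou1 and Dnajc3, an isomerase, a nucleotide exchange factor and a co-chaperone, had log2 differences of -1.09, -0.95 and -0.89. Manf, a secreted ER protein that binds Hspa5, followed at -0.55 (adjusted p = 0.00685).

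The 2 remaining falls depended on settings. Calr, the lectin chaperone calreticulin and the highest of the 35 genes in Control, was at 1206, 1408 and 1189 FPKM in Control and at 691, 987 and 765 in LPS. It lay lower in all LPS libraries (log2 difference -0.65, SE 0.17, adjusted p = 0.0149), but not past the threshold with median-of-ratios scaling (adjusted p = 0.189), without the Control library numbered 2 (adjusted p = 0.054) or without the LPS library numbered 1 (adjusted p = 0.0539). Dnajb11, an Hspa5 co-chaperone, fell from 73.3 ± 4.83 to 52.1 ± 0.431 FPKM (SD, n = 3, adjusted p = 0.00375), and its adjusted p was 0.135 with median-of-ratios scaling.

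Hspa5 (BiP), the central ER chaperone that also holds the sensors inactive, did not pass. It was at 568, 671 and 543 FPKM in Control and at 505, 525 and 487 in LPS. Every LPS library was lower than every Control library, but the difference was small (log2 difference -0.23, 95% interval -0.50 to 0.04, adjusted p = 0.156). Pdia3, the glycoprotein isomerase, was close to the threshold (log2 difference -0.26, adjusted p = 0.0687). With median-of-ratios scaling the log2 differences of Hspa5 and Pdia3 were -0.01 and -0.04 (adjusted p = 0.965 and 0.823). Dnajb9, a co-chaperone and well-known Xbp1 target, overlapped between groups at 9.22 to 14.0 FPKM in Control and 10.7 to 16.1 in LPS (log2 difference 0.09, adjusted p = 0.737).

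P4hb was the exception among the folding factors, and it is singled out here after its values were seen. It encodes protein disulfide isomerase, which is also a subunit of collagen prolyl 4-hydroxylase. Its values were 740, 695 and 736 FPKM in Control, 1772, 2017 and 1439 after LPS and 1926, 1858 and 1546 with LPS+EVs. The LPS mean was 2.41-fold higher than that of Control (log2 difference 1.25, SE 0.15, adjusted p = 0.00043), and no treated library came near the Control range. Since FPKM is scaled to gene length, levels of different genes can be added: the 14 folding factors together stood at 4577 ± 216 FPKM in Control and 4216 ± 403 in LPS (SD, n = 3). Without P4hb the sum was 3853 ± 240 in Control and 2473 ± 149 in LPS. P4hb was 15.8% ± 1.25 of the folding factor sum in Control, 41.2% ± 3.42 after LPS and 42.7% ± 2.46 in LPS+EVs (SD, n = 3), and it passed Calr as the highest of the 35 genes.

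**Figure D2:**
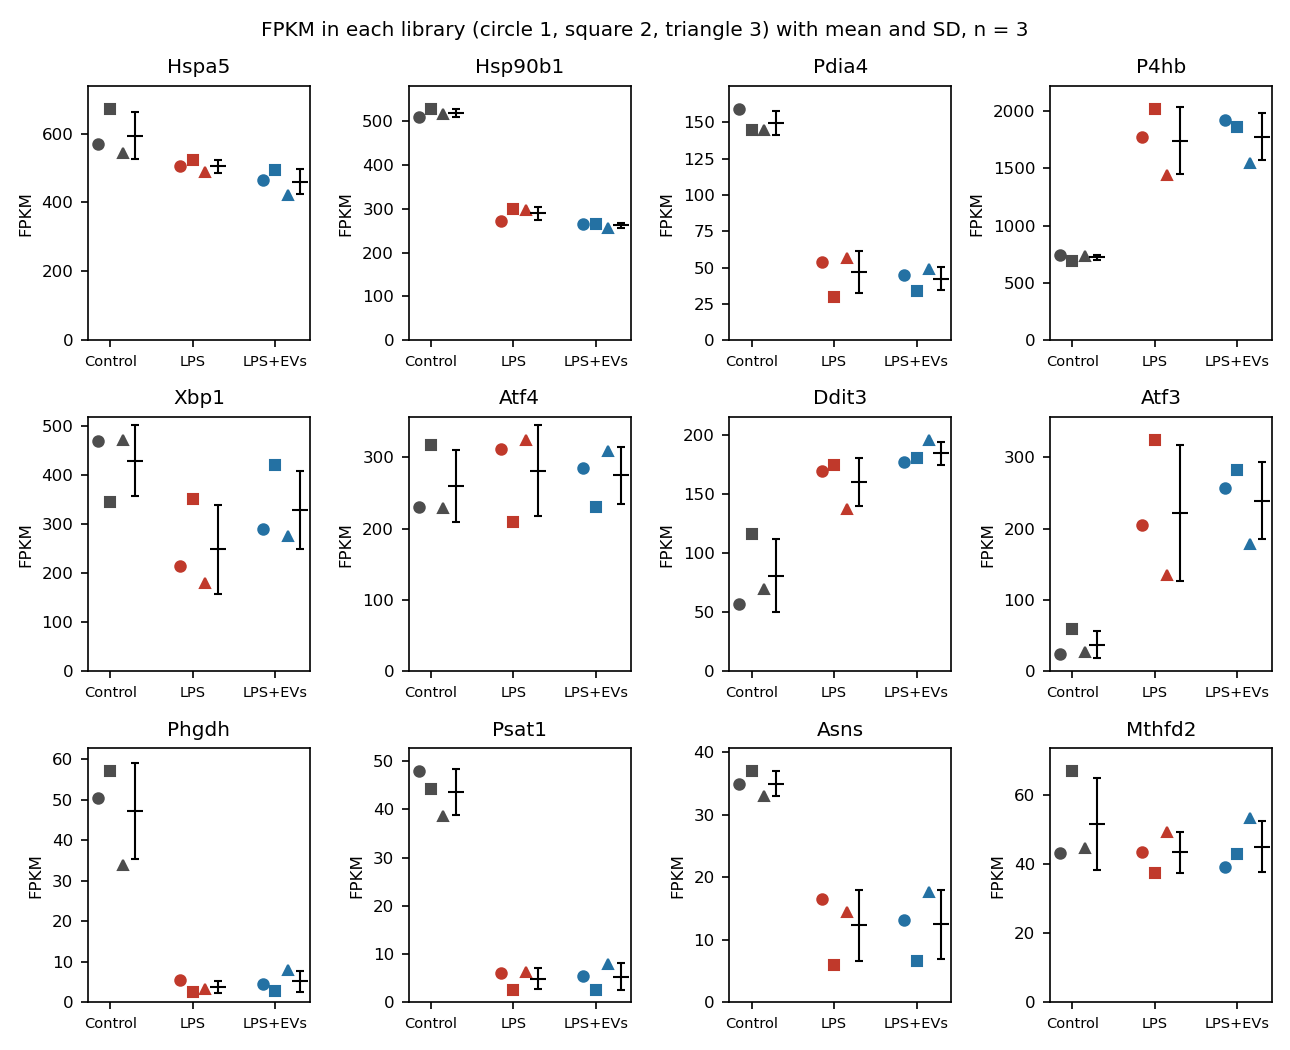
FPKM (vertical axes, from 0) of 12 genes in each library of the 3 groups (circle, square and triangle for libraries 1, 2 and 3), with the mean and SD (n = 3) beside the points. Hsp90b1, Pdia4, Phgdh, Psat1 and Asns lie lower and P4hb, Ddit3 and Atf3 higher in all treated libraries than in Control, while Hspa5 differs little and Xbp1, Atf4 and Mthfd2 overlap.

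ER-associated degradation returns misfolded protein to the cytosol, and 4 of its 5 tested genes fell while 1 rose (median log2 difference -0.50). Herpud1, which organises the retrotranslocation complex, was at 56.6, 83.9 and 62.1 FPKM in Control and at 32.9, 25.6 and 44.9 in LPS, 1.96-fold lower (log2 difference -0.97, SE 0.22, adjusted p = 0.00854). The LPS library numbered 2 was its lowest and the Control library numbered 2 its highest. Edem1, a lectin that extracts misfolded glycoproteins, fell from 71.5 ± 4.57 to 38.3 ± 7.10 FPKM (SD, n = 3, log2 difference -0.90, adjusted p = 0.00156).

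The ubiquitin ligase Syvn1 (HRD1) and its adaptor Sel1l fell less, by 0.50 and 0.41 on the log2 scale (adjusted p = 0.0394 and 0.0131). Neither passed with median-of-ratios scaling (adjusted p = 0.175 and 0.292). The Syvn1 call also ended without any of 7 of the 9 libraries, removed singly (adjusted p = 0.0522 to 0.125), and that of Sel1l without the Control library numbered 3 (adjusted p = 0.0531). Derl1, a channel component, was at 40.0, 41.2 and 42.5 FPKM in Control and at 49.5, 53.2 and 51.0 in LPS. These groups did not overlap, and the mean was 1.24-fold higher (log2 difference 0.31, SE 0.10, adjusted p = 0.0313), but the call ended without any of the 6 Control and LPS libraries (adjusted p = 0.0589 to 0.108). Derl3, its stress-inducible relative, was under the filter: 1.25, 1.60 and 0.856 FPKM in Control and 0.287, 0.297 and 0.265 in LPS, from 197 to 309 and 60 to 65 reads. Fitted without the filter, Derl3 had a log2 difference of -0.79 (adjusted p = 0.00553).

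Transcripts of the 3 sensors did not pass. Ern1 was at 6.77, 7.91 and 6.68 FPKM in Control and at 7.35, 4.12 and 9.20 in LPS, so that LPS held both its lowest and its highest value (log2 difference -0.10, 95% interval -0.73 to 0.54, adjusted p = 0.806). Atf6 was at 33.8, 32.4 and 30.5 FPKM in Control and at 31.2, 17.5 and 31.0 in LPS, where only the library numbered 2 stood apart (log2 difference -0.31, adjusted p = 0.304). Eif2ak3 was at 10.6 ± 0.974 FPKM in Control and 11.6 ± 1.84 in LPS (SD, n = 3, adjusted p = 0.624).

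Xbp1, which codes for the transcription factor made after splicing by Ern1, was at 471, 346 and 472 FPKM in Control and at 215, 352 and 180 in LPS. In the libraries numbered 1 and 3 it was far lower with LPS, and in those numbered 2 it was level, so the groups overlapped. The fall passed the test (log2 difference -0.83, SE 0.27, adjusted p = 0.037). It did not pass with median-of-ratios scaling (adjusted p = 0.183) or without any of 5 of the 9 libraries, removed singly (adjusted p = 0.0525 to 0.114). In libraries 1 and 3 alone its adjusted p was 0.000774, but that subset leaves out the level pair, so it is no support for the fall.

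Of the 6 stress-response transcription factors and feedback genes, 3 rose, none fell and 3 did not pass, with a median log2 difference of 0.57. The log2 differences of Trib3 and Chac1 were negative (-0.70 and -0.89). Ddit3 (CHOP), a pro-apoptotic transcription factor, was at 57.2, 116 and 69.6 FPKM in Control and at 169, 174 and 137 in LPS. The lowest LPS library was above the highest Control library, and the mean was 1.98-fold higher (log2 difference 1.03, SE 0.23, limma adjusted p = 0.00866). Atf3, a repressor of inflammatory genes that many stresses and Toll-like receptors induce, was at 24.9, 59.2 and 27.9 FPKM in Control and at 206, 324 and 135 in LPS. It rose 5.95-fold, the largest rise of the 34 (log2 difference 2.56, SE 0.39, adjusted p = 0.00132), with the libraries numbered 2 highest in both groups. Ppp1r15a (GADD34), which directs the phosphatase that restores eIF2, was at 56.1, 85.1 and 58.4 FPKM in Control and at 171, 201 and 161 in LPS. Its mean was 2.67-fold higher (log2 difference 1.42, SE 0.18, adjusted p = 0.000495), and the LPS libraries were all far above Control.

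Atf4, the factor upstream of these genes in the integrated stress response, was at 231, 318 and 229 FPKM in Control and at 312, 209 and 324 in LPS. The library numbered 2 was the highest in Control and the lowest in LPS, and the groups overlapped (log2 difference 0.11, 95% interval -0.37 to 0.59, adjusted p = 0.708). In the libraries numbered 1 and 3 alone Atf4 was higher with LPS (adjusted p = 0.0169). That subset leaves out the libraries seen to go the other way, so it is no support for a rise.

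The other Atf4 and Ddit3 targets of this group did not pass. Trib3, a pseudokinase that feeds back on Atf4, was at 30.4, 53.7 and 26.0 FPKM in Control and at 25.6, 11.3 and 31.8 in LPS, again with library 2 highest in Control and lowest in LPS (log2 difference -0.70, 95% interval -1.59 to 0.18, adjusted p = 0.176). Chac1, which degrades glutathione, was at 6.50, 11.8 and 6.59 FPKM in Control and at 4.90, 1.98 and 5.51 in LPS, with no overlap. Its log2 difference of -0.89 did not pass (SE 0.36, adjusted p = 0.0783), and it rests on 114 to 611 reads per library.

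Of the 5 enzymes, which Atf4 induces when amino acids are short, 4 fell and 1 did not pass, with a median log2 difference of -1.65. Phgdh, the first enzyme of serine synthesis, was at 50.5, 57.0 and 34.0 FPKM in Control and at 5.59, 2.64 and 3.37 in LPS, 12.2-fold lower (log2 difference -3.32, SE 0.35, adjusted p = 0.000196). Psat1, the next enzyme of that pathway, was at 47.9, 44.3 and 38.6 FPKM in Control and at 6.15, 2.48 and 6.23 in LPS, 8.80-fold lower (log2 difference -2.98, SE 0.38, adjusted p = 0.000531). For both genes the Control and LPS libraries lay far apart.

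Asns, asparagine synthetase, was at 34.9, 37.0 and 33.0 FPKM in Control and at 16.6, 5.93 and 14.4 in LPS (log2 difference -1.54, SE 0.40, adjusted p = 0.0148). Shmt2, the mitochondrial enzyme that passes the carbon of serine to folate, was at 55.5, 49.9 and 48.1 FPKM in Control and at 22.8, 6.83 and 23.4 in LPS (log2 difference -1.65, SE 0.50, adjusted p = 0.0289). For both, Control was tight and the LPS library numbered 2 lay well below the other LPS libraries. The Shmt2 call ended without any Control library or without the LPS library numbered 2 (adjusted p = 0.0558 to 0.086). Mthfd2, the next mitochondrial folate enzyme, overlapped between the groups at 43.4, 67.0 and 44.8 FPKM in Control and 43.7, 37.5 and 49.3 in LPS (log2 difference -0.23, 95% interval -0.67 to 0.22, adjusted p = 0.382). Together the 5 enzymes stood at 229 ± 28.6 FPKM in Control and 82.3 ± 23.3 in LPS (SD, n = 3).

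**Figure D3:**
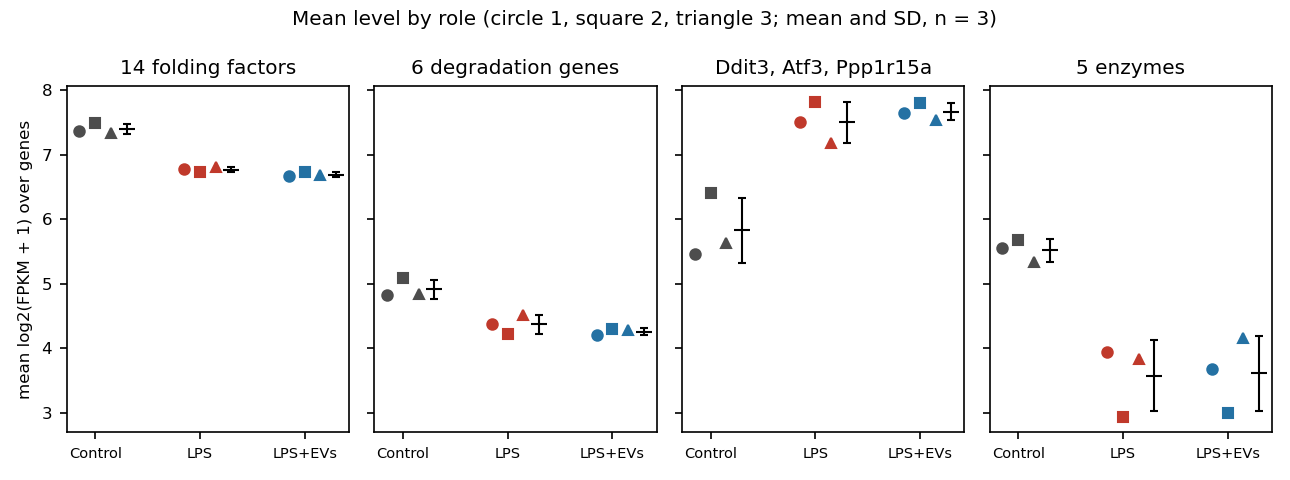
Mean log2(FPKM + 1) (vertical axis, shared, not from 0) over the genes of 4 groups in each library (circle, square and triangle for libraries 1, 2 and 3), with the mean and SD (n = 3) beside the points. Folding factors, degradation genes and enzymes lie lower in all treated libraries than in Control and Ddit3, Atf3 and Ppp1r15a higher, and the enzymes are lowest in the treated libraries numbered 2.

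Set side by side, chaperones and Atf4-Ddit3 targets had similar medians. The 10 targets (Ddit3, Atf3, Ppp1r15a, Trib3, Chac1 and the 5 enzymes) held 3 rises and 4 falls, with a median log2 difference of -0.80 beside -0.74 for the folding factors. The mean log2(FPKM + 1) of the folding factors exceeded that of the targets by 2.06 ± 0.23 in Control, 2.06 ± 0.30 in LPS and 1.94 ± 0.30 with EVs added (SD, n = 3). These means hide the split within the targets, of which 3 regulators rose and 4 enzymes fell. The level gap also hides the libraries numbered 2. LPS minus Control, it was -0.35 in the libraries numbered 1, 0.60 in those numbered 2 and -0.25 in those numbered 3, and libraries 1 and 3 alone gave -0.30 after LPS and -0.40 in LPS+EVs minus Control. Leaving out single libraries moved the LPS minus Control value between -0.17 and 0.12.

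The ERSE letters did not mark a single response. Of 14 tested genes with an ERSE in the promoter window, 9 fell and 1 rose after LPS, with a median log2 difference of -0.64. Among the 6 of them followed here, Hsp90b1, with 2 copies, Calr, Creld2, Dnajc3 and Xbp1 fell and Hspa5 did not pass. The 8 others, chosen by the letters alone, held 4 falls and 1 rise (median -0.51), beside 28.7% and 12.3% of all tested genes. Birc5, one of these 4 falls, was at 19.8 to 22.9 FPKM in Control and at 0.357 to 0.794 in LPS. It passed the filter only through Control, so it had to differ and its call is no support for a fall. P4hb, the folding factor that rose, had no ERSE, ERSE-II or CARE in its window. Neither had Pdia4 and Sdf2l1, which fell, nor Dnajb9, which did not pass.

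Adding EVs to LPS changed none of these genes by the test. No gene of 34 passed in either direction, and neither did any of the 11141 tested genes (0.0%, limma). At an unadjusted p under 0.05 there were 0 of the 34 and 295 of all genes (2.65%). With the replicate number as a block 0 of the 34 and 600 of all genes (5.39%) were under 0.05 unadjusted, and with limma-voom on recovered reads 0 and 277 (2.49%), with no adjusted call from either. The 34 log2 differences ran from -0.40 (Dnajb9) to 0.43 (Xbp1), with a median of -0.03 beside -0.01 for all tested genes.

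**Figure D4:**
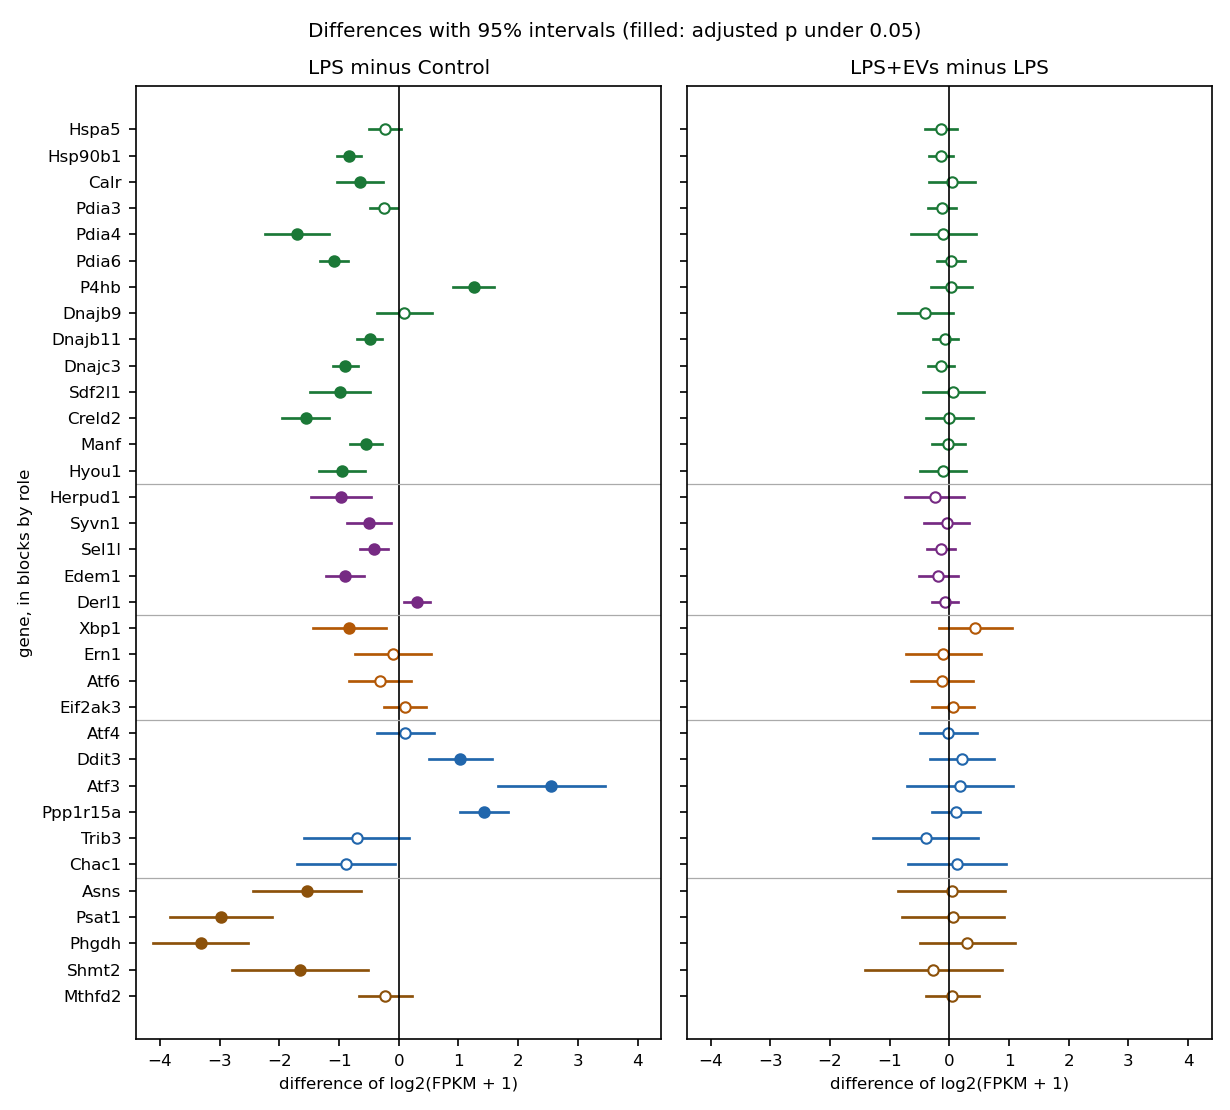
Difference of log2(FPKM + 1) with its 95% interval from limma (horizontal axes) for the 34 tested genes (rows, in blocks by role), LPS minus Control at left and LPS+EVs minus LPS at right; filled points passed an adjusted p of 0.05. At left 24 points are filled, from -3.32 (Phgdh) to 2.56 (Atf3), and at right none is filled and the points lie between -0.40 and 0.43.

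The intervals show what this comparison could leave undetected. Hsp90b1 was at 265, 264 and 256 FPKM in LPS+EVs and at 273 to 299 in LPS, with a log2 difference of -0.14 (95% interval -0.35 to 0.06, unadjusted p = 0.145). Xbp1 was at 291, 420 and 276 FPKM, higher than in LPS in 3 of 3 same-numbered pairs, with a log2 difference of 0.43 (95% interval -0.18 to 1.05, unadjusted p = 0.142, and 0.118 with the replicate block). Ddit3 was at 177, 180 and 195 FPKM in LPS+EVs and at 137 to 174 in LPS, with a log2 difference of 0.21 (95% interval -0.32 to 0.74, unadjusted p = 0.396).

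In LPS+EVs the folding factors Hspa5, Hsp90b1, Pdia3, Dnajb9, Dnajb11 and Dnajc3 were lower than in LPS in 3 of 3 numbered pairs. Such one-sided pairs were 8 of 34 lower (23.5%) and 3 of 34 higher (8.82%), beside 16.8% and 16.7% of all tested genes. For the enzymes the intervals were wide: Phgdh was at 4.59, 2.83 and 8.11 FPKM in LPS+EVs (log2 difference from LPS 0.30, 95% interval -0.50 to 1.09) and Asns at 13.1, 6.67 and 17.7 (0.04, -0.86 to 0.94). Shmt2, at 15.4, 6.16 and 21.0 FPKM, had the widest interval (-0.27, -1.41 to 0.87). Library 2 was again the lowest of its group for these 3 genes.

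Against Control, which both treated groups share as their reference, the LPS+EVs cultures showed 21 of 34 genes lower, 4 higher and 9 not passed, beside 30.8% and 13.5% of all tested genes. With the block these counts were unchanged, beside 37.4% and 17.8% of all genes, and with median-of-ratios scaling 14 were lower and 6 higher, beside 22.4% and 18.7%. The median log2 difference was -0.56 beside -0.19 over all tested genes. Pdia4 was at 44.6, 33.9 and 48.9 FPKM in LPS+EVs (log2 difference from Control -1.80, adjusted p = 0.000644) and Creld2 at 16.0, 24.9 and 18.8 (-1.56, adjusted p = 0.000261). Sdf2l1, at 65.1, 67.8 and 82.0 FPKM, lay below all Control libraries (-0.92, adjusted p = 0.0102). Psat1 was at 5.47, 2.52 and 8.04 FPKM (-2.91, adjusted p = 0.000594), and the log2 differences of Phgdh, Shmt2 and Asns were -3.02, -1.92 and -1.50 (adjusted p = 0.000319, 0.0146 and 0.015).

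Atf3 was at 258, 283 and 179 FPKM in LPS+EVs, above all Control libraries (log2 difference from Control 2.73, SE 0.39, adjusted p = 0.000948). Ppp1r15a was at 176, 219 and 182 FPKM (1.54, SE 0.18, adjusted p = 0.000322), and Ddit3 differed from Control by 1.24 (SE 0.23, adjusted p = 0.00346). Atf4, at 285, 230 and 309 FPKM, and Ern1, at 6.32, 4.30 and 8.15, overlapped with Control (adjusted p = 0.757 and 0.6).

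Hspa5, Pdia3 and Trib3 passed here and not in LPS alone. Hspa5 was at 466, 495 and 421 FPKM in LPS+EVs (log2 difference from Control -0.36, adjusted p = 0.0352), Pdia3 at 360, 316 and 314 (-0.38, adjusted p = 0.0147) and Trib3 at 12.8, 15.9 and 19.1 (-1.10, adjusted p = 0.046). The difference of each from LPS itself did not pass (unadjusted p = 0.281, 0.246 and 0.332), so an effect of the vesicles on them is not shown. All 3 calls ended with median-of-ratios scaling (adjusted p = 0.568, 0.366 and 0.0717) and without single libraries (adjusted p up to 0.112, 0.0621 and 0.149). Chac1, at 2.79, 4.68 and 5.98 FPKM in LPS+EVs, did not pass (adjusted p = 0.118), and Xbp1 did not either (log2 difference -0.40, adjusted p = 0.264).

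Other genes of these pathways, listed by function, were counted in the same comparison of LPS with Control. Their counts stand beside 12.3% higher and 28.7% lower of all tested genes, with a median log2 difference of -0.19. Of 19 other tested ER folding factors 9 fell and 1 rose (median log2 difference -0.34). Among the falls were Fkbp11, a prolyl isomerase, from 9.16 ± 1.56 to 2.91 ± 0.384 FPKM (adjusted p = 0.00129), and Canx, the membrane-bound lectin chaperone, from 162 ± 6.50 to 109 ± 7.26 (adjusted p = 0.00324). The rise was that of Ero1a, the oxidase that recharges P4hb, from 62.6 ± 17.5 to 218 ± 35.7 FPKM (SD, n = 3, log2 difference 1.81, adjusted p = 0.00223). Of 17 other degradation genes 5 rose and 2 fell (median 0.19), and 9 rose and 1 fell with median-of-ratios scaling, beside 17.1% higher and 20.8% lower of all genes. Edem2, a mannosidase-like protein, fell from 49.2 ± 3.11 to 25.3 ± 1.76 FPKM (adjusted p = 0.000224), while Selenok rose from 59.2 ± 4.24 to 94.1 ± 9.16 and Ubxn4 from 61.0 ± 2.49 to 92.7 ± 4.85 (SD, n = 3, adjusted p = 0.0018 and 0.00117).

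Among 9 other signal transducers of the unfolded protein response 4 fell and 2 rose. Mbtps1, the protease that cleaves Atf6 in the Golgi, fell from 22.0 ± 0.982 to 10.2 ± 1.99 FPKM (adjusted p = 0.0017), Map3k5, a kinase downstream of Ern1, from 4.15 ± 0.226 to 1.18 ± 0.492 (adjusted p = 0.000698), and Atf6b from 51.1 ± 8.49 to 29.5 ± 3.83 (SD, n = 3, adjusted p = 0.00549). Of 13 genes for eIF2 kinases, the exchange factor eIF2B and eIF2 phosphatase, 3 fell and 1 rose. Both shares were below those of all tested genes (28.7% lower and 12.3% higher). The eIF2B subunit gene Eif2b5 fell from 27.6 ± 2.40 to 18.0 ± 0.795 FPKM (adjusted p = 0.00364) and Eif2b3 from 25.5 ± 1.12 to 6.80 ± 4.35 (adjusted p = 0.0179), and Impact, an inhibitor of the kinase Gcn2, rose from 15.4 ± 1.45 to 24.9 ± 4.03 (SD, n = 3, adjusted p = 0.0224). Eif2b3 did not pass without any Control library and Impact without 4 of the libraries (adjusted p up to 0.0529 and 0.0787), and Eif2b5 did not with median-of-ratios scaling (adjusted p = 0.0929).

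Of 21 other tested Atf4 or Ddit3 target genes 3 rose and 5 fell (median -0.28), shares near those of all tested genes (12.3% and 28.7%). Gdf15, a stress cytokine, rose from 35.2 ± 2.30 to 328 ± 112 FPKM (log2 difference 3.12, adjusted p = 4.34e-05) and Ddit4, an inhibitor of mTORC1, from 12.7 ± 5.40 to 39.6 ± 9.98 (1.63, adjusted p = 0.00404). Aldh18a1, an enzyme of proline synthesis, fell from 23.4 ± 7.96 to 4.85 ± 1.63 FPKM (SD, n = 3, log2 difference -2.03, adjusted p = 0.000874). Among 12 cytosolic heat shock genes 2 were called higher and 3 lower (median 0.12), also near those shares. Hspa1b, the inducible cytosolic Hsp70 and one of the 2, was at 0.142 to 0.284 FPKM in Control and at 5.89, 34.5 and 3.82 in LPS, with library 2 highest. It passed the filter only through the treated libraries, so it had to differ and its call is no support for a rise. Stip1, a co-chaperone, and Hsf1, the master heat shock factor, fell by 0.75 and 0.66 on the log2 scale (adjusted p = 0.00845 and 0.0257), with Stip1 at 0.106 under median-of-ratios scaling and Hsf1 at up to 0.0799 without any of 5 single libraries and at 0.0805 in libraries 1 and 3 alone. None of these 91 tested genes passed between LPS+EVs and LPS.

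In LPS+EVs against Control the same lists held 9 falls and 1 rise among other folding factors, 2 and 4 among other degradation genes, 5 and 2 among transducers, 3 and 1 among the eIF2 genes, 5 and 4 among other targets and 3 and 2 among heat shock genes (Hspa1b again one of the 2), beside 30.8% lower and 13.5% higher of all tested genes. The shares among the eIF2 genes, with 3 and 1 of 13, were below these. Uggt1, the glycoprotein folding sensor, was at 35.5 ± 1.80 FPKM in Control and 15.6 ± 2.61 in LPS+EVs (SD, n = 3, adjusted p = 0.0025). Eif2s1, the eIF2 subunit that the stress kinases phosphorylate, was at 72.5 ± 7.81 and 43.3 ± 7.46 FPKM (adjusted p = 0.00423), and Hspa4, a cytosolic chaperone, at 62.2 ± 4.32 and 41.4 ± 2.78 (SD, n = 3, adjusted p = 0.00424). Traf2, the adaptor that joins Ern1 to kinase signalling, was at 7.76 ± 0.891 and 13.3 ± 1.61 FPKM, a rise of 0.71 on the log2 scale (SD, n = 3, adjusted p = 0.00577). Each of these genes was already called in the same direction after LPS alone. Their LPS means were 17.1 (Uggt1), 52.7 (Eif2s1), 49.6 (Hspa4) and 10.8 FPKM (Traf2). The LPS calls of Eif2s1, Hspa4 and Traf2 ended in 9, 15 and 10 of the 17 other settings.

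Counting is not stated to use strand, and 9 of the 35 genes overlap another protein-coding gene in the RefSeq annotation: Pdia3, Creld2, Herpud1, Syvn1, Derl3, Atf6, Ddit3 (with Mars1), Atf3 (with Garin4) and Shmt2 (with Ndufa4l2). Reads from the shared parts cannot be told apart, so the values of these 9 are less certain.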

How the data were processed

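RNA was sequenced from 9 cultures in 3 groups, mapped to groups and replicate numbers from the sample labels. The authors deposited FPKM values for 20442 genes. Per the submitters' processing notes the build was mRatBN7.2 and the tools were fastp, HISAT2, HTSeq and R 3.2.0, with settings not given in the sources used here. Whole reads were recovered from the steps of the FPKM values (tolerance 0.002 reads) for each of the 18833 genes above 0 in at least 2 libraries, which gave 32148519 to 39407116 per library. A whole factor shared by all counts of a gene would not show.

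The design planned limma-trend for FPKM values. The 11141 genes that reached 1 FPKM in 3 or more libraries entered limma 3.58.1 in R 4.3.3 as log2(FPKM + 1), all 9 libraries in 1 fit with 1 mean per group, two-sided, with Benjamini-Hochberg adjustment over all tested genes and a threshold of 0.05. A log2 difference on this scale understates changes of low genes, and fold values are ratios of mean FPKM. The fit was tested on simulated data. No exact test of single genes was run, since 3 against 3 cannot go below a two-sided p of 0.10.

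The members and lists were chosen with earlier results of these data known, so no list was tested. Named in full are 10 genes set by name (Hspa5, Hsp90b1, Sdf2l1, Xbp1, Ern1, Atf4, Ddit3, Trib3, Chac1 and Asns), the 8 largest changes per comparison among genes that passed without overlap, and up to 3 genes per other list with the smallest adjusted p. P4hb, Calr and others outside the rule were named after their values were seen.

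Whether replicate numbers pair the cultures was checked on deviations from the group means. Libraries of 1 number correlated at 0.28 to 0.86 across groups, and those of different numbers at -0.74 to 0.43. Although these pooled ranges overlap, each library correlated most with the library of its own number in each other group. Deviations cancel within each group, so positive correlations within a number lower those between different numbers. The labels do not say what a number shares, so the source of this pattern is not known. The main fit did not use the numbers. They served as a block in alternative fits and for the same-numbered pairs. Promoters are RefSeq's for GRCr8, read in gene orientation, and genes were matched by the gene identifier given in the expression table. Tables were made with pandas 2.3.3 and numpy 2.4.6 in Python 3.11.15, and figures with matplotlib 3.10.9. In all, 17 alternatives were tried.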

Additional observations from a re-analysis of the deposited data

How the results depend on the processing

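Of the 24 calls among the 34 genes in LPS against Control, the replicate block ended none, giving 5 higher and 19 lower genes as without it, and it ended none of the 25 in LPS+EVs against Control (4 higher and 21 lower). Over all genes the block raised the counts from 1368 to 1912 higher and from 3201 to 3950 lower in LPS against Control, while with both the block and median-of-ratios scaling there were 2694 higher, against 1895 with that scaling alone. In LPS+EVs against Control (1505 higher) that scaling alone gave 2081 and both together 2819. Without single libraries all-gene counts ran from 891 to 1496 higher and 1884 to 3185 lower after LPS and from 1045 to 1789 and 2194 to 3987 in LPS+EVs against Control (3436 with all libraries), and 1 gene was higher in LPS+EVs than LPS without the LPS library numbered 2. Among the 34 genes, leaving out single libraries gave 4 to 5 higher and 15 to 19 lower genes in LPS against Control, 4 higher and 17 to 23 lower in LPS+EVs against Control, and 0 in LPS+EVs against LPS. Median-of-ratios scaling shifted the median of all genes by 0.19, ended 5 of the 19 falls after LPS (Calr, Dnajb11, Syvn1, Sel1l and Xbp1) and left 14. In LPS+EVs against Control it left 14 lower and 6 higher genes, and the higher share of all calls went from 30.5% to 45.6%. Among other degradation genes 3 to 10 rose over all settings after LPS, and among the eIF2 genes 0 to 5. No filter ended Syvn1, Xbp1 and Shmt2 after LPS. The gap between folding factors and targets in LPS+EVs minus LPS was -0.12 and ran from -0.26 to 0.05 without single libraries. The cause of these changes was not tested. With 3 cultures a group, the spread between cultures limits the precision. Counting error adds to that spread for Chac1 (114 to 611 reads) and Derl3 (35 to 309 reads).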
